A study of Mus musculus with 6 samples.

Results

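The Ighd5 and Ighd6 families are the rarely assigned D gene families of the mouse immunoglobulin heavy-chain (Igh) locus. They were described here in rearranged Igh genes read from genomic DNA by VDJ-seq, a method that captures rearranged V, D and J segments from DNA. A sequence was taken as a member when the first gene of its D call, with the allele removed, belonged to Ighd5 or Ighd6. This gave 888 Ighd5 sequences and 1262 Ighd6 sequences, together 2150 of the 228609 sequences in the data set. The DNA came from the spleens of C57BL/6 mice, 12 weeks of age, with B cells obtained by removing other cells on magnetic columns. There were 6 libraries, each the only library of its group. The DNA input series had 500 ng, 1 µg, 2.5 µg and 5 µg, and a polymerase pair carried the names Q5_Q5 and Q5_vent, with a DNA amount not given in the sources used here. No genotype or treatment set the groups apart, and the labels do not say whether libraries came from separate mice. The libraries held 8704 to 112320 sequences, of which 5.28% to 5.68% had no D call.

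D segments are short coding pieces joined first to a J gene and then to a V gene while a B cell develops. The RAG recombinase cuts at recombination signal sequences, which flank a D segment on both sides, and terminal transferase can add untemplated N bases at the V–D and D–J junctions. The V–D–J junction encodes CDR3, the loop of the heavy chain that varies most and often contacts antigen. Most mouse joins use the families Ighd1 (DFL16), Ighd2 (DSP2), Ighd3 (DST4) and Ighd4 (DQ52). In the RefSeq annotation of GRCm38.p6, all 8 Ighd5 genes and both Ighd6 genes listed were D segment pseudogenes, while the 10 genes of Ighd1 to Ighd4 were D segments without that mark.

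The germline letters of the genes called first are shown because the findings rest on how little of them was matched. They were read from the matched bases of the joins and are written 5′ to 3′.
Ighd5-1: gagtacctac
Ighd5-2: gaatacctac
Ighd5-5: gactacctac
Ighd6-1: aggcagctagcctctgcagtgccacaacc
Ighd6-2, positions 3 to 17: gcagctagtctctgc
The Ighd5 genes share their 3′ letters TACCTAC. The Ighd6-2 letters outside positions 3 to 17 were matched in none of the 262 joins with Ighd6-2 as first gene, and calls that list it after another gene were not read for this. Every match of a first-called Ighd5 gene or of Ighd6-2, and 997 of the 1000 Ighd6-1 matches, was an exact stretch of these letters. The other 3 Ighd6-1 matches were calls to its second listed allele together with Ighd6-4, and their letters differ from those above.

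All of these genes lie on chromosome 12 between Ighd4-1, next to the J genes, and the V genes. In GRCm38, Ighd5-1 spans 113526800 to 113526809, on the V side of Ighd1-1, whereas Ighd5-2 spans 113469426 to 113469435 and Ighd5-5 spans 113454942 to 113454951, among the Ighd2 genes. Ighd6-1 spans 113480143 to 113480171 and Ighd6-2 spans 113474875 to 113474903, on the J side of Ighd1-1. The Ighd5 genes with a first call are 10 bases long and the Ighd6 genes 29 bases.

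Ighd5 made up 0.388% of all sequences (Wilson 95% interval 0.364% to 0.415%), and Ighd6 made up 0.552% (interval 0.522% to 0.583%). All intervals for single libraries cover counting error only, and molecules in a library share their DNA source. The Ighd5 share was 0.368%, 0.434%, 0.371% and 0.396% along the input series (500 ng, 1 µg, 2.5 µg, 5 µg), from 32, 74, 208 and 445 sequences, and 0.339% in Q5_Q5 (51 sequences) against 0.40% in Q5_vent (78 sequences). The Ighd6 share was 0.460%, 0.516%, 0.554% and 0.581% along the input series, from 40, 88, 310 and 653 sequences, and 0.452% in Q5_Q5 (68 sequences) against 0.528% in Q5_vent (103 sequences). Ighd6 was the more frequent family in every library, and the libraries' intervals overlapped within each family. The 5 µg library differed from the 500 ng library by 0.0285 percentage points for Ighd5 (95% interval -0.104 to 0.161) and by 0.122 points for Ighd6 (interval -0.0271 to 0.271). Q5_Q5 differed from Q5_vent by -0.0610 points for Ighd5 (interval -0.189 to 0.0675) and by -0.0762 points for Ighd6 (interval -0.224 to 0.0717). Each of these intervals included 0, and with 1 library per group none has a replicate check. For scale, Ighd3 made up 5.80% and Ighd4 6.11% of all sequences.

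**Figure D1:**
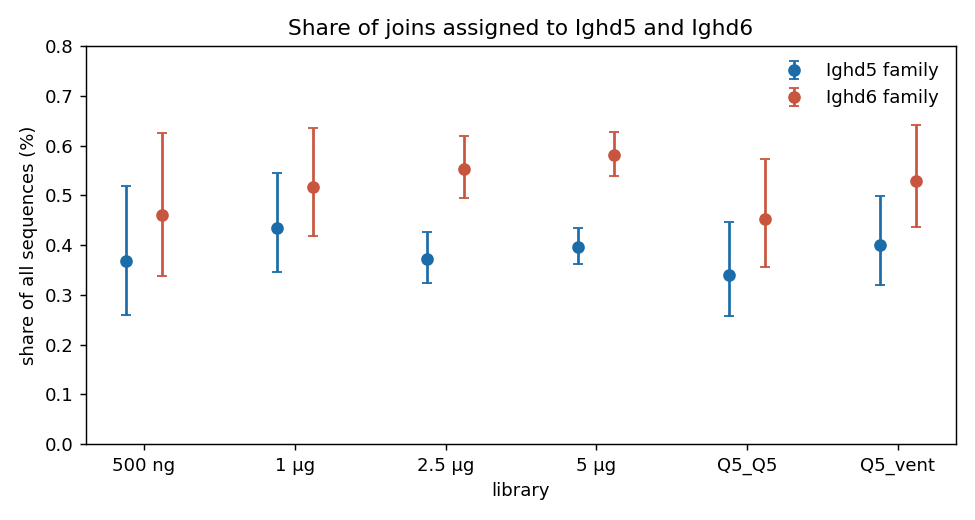
Share of all sequences (percent, vertical axis) whose first D call was Ighd5 or Ighd6 in each of the 6 libraries (horizontal axis); bars are Wilson 95% intervals, which cover counting error only. Ighd5 lies between 0.339% and 0.434% and Ighd6 between 0.452% and 0.581%, and within each family the intervals overlap.

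Within Ighd5, 406 sequences were first called Ighd5-1, 337 Ighd5-5 and 145 Ighd5-2. Within Ighd6, 1000 were first called Ighd6-1 and 262 Ighd6-2. Ighd5-3, Ighd5-4, Ighd6-3 and Ighd6-4 were listed in 290, 145, 536 and 11 calls and never first, and Ighd5-6, Ighd5-7 and Ighd5-8 were in no call. Lists of D genes run in order of name and hold at most 3 alleles, so the first gene of a tie is set by its name.

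Ighd5 calls mostly named a single D gene, at 611 of 888, while Ighd6 calls mostly named several. Ighd5-5 stood alone in 333 calls and Ighd5-1 in 278, whereas all 145 Ighd5-2 calls also listed Ighd5-3 and Ighd5-4, and 121 Ighd5-1 calls also listed Ighd5-2 and Ighd5-3. In Ighd6, 536 calls paired Ighd6-1 with Ighd6-3, 434 paired it with Ighd6-2, 262 named Ighd6-2 alone and 27 Ighd6-1 alone. The share of Ighd5 calls listing several D genes was 34.4%, 33.8%, 30.3% and 29% from 500 ng to 5 µg, 31.4% in Q5_Q5 and 42.3% in Q5_vent. It averaged 33.5% ± 4.77, against 42.1% ± 0.278 for sequences of the other D families in the same libraries (SD, n = 6 libraries). For Ighd6 it was 75%, 75%, 76.1% and 77.3% from 500 ng to 5 µg, 82.4% in Q5_Q5 and 77.7% in Q5_vent. The Ighd6 mean was 77.2% ± 2.74, against 41.9% ± 0.288 for the other D families. The Ighd5 difference averaged -8.61 points and the Ighd6 difference 35.3 points, and each kept its direction in all 6 libraries (two-sided exact sign-flip permutation test over 6 libraries, p = 0.0312 each). Both depend on the comparison made. The Ighd5 difference turned to 18.9 points when any call listing an Ighd5 gene counted as a member and to 16.8 points against Ighd3 and Ighd4 alone (higher in 6 of 6 libraries and called in both), and the Ighd6 difference was -0.819 points and not called against Ighd2 alone. The order of names also leaves members with Ighd5 and Ighd6 genes only in their lists. The rule that chose the members therefore shapes this share, and its p and calls are a description only. That p is the smallest the test can give, and none of the 26 planned comparisons, of 13 measures in both families, had an adjusted p under 0.05. A difference is called here when all 6 libraries agreed in direction and the counting interval of the 5 µg library excluded 0. Of the 26, 7 were called, and the differences of this share in Ighd5 and Ighd6 are among them.

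No member listed a gene of Ighd1 to Ighd4 beside its first gene, which the order of the lists fixes. Counting a gene at any place, Ighd5 was listed in 1553 calls, of which 434 had an Ighd2 gene first and 175 an Ighd1 gene. Ighd6 was listed in 1975 calls, of which 295 had an Ighd3 gene first, 189 an Ighd1 gene, 112 an Ighd2 gene and 106 an Ighd4 gene. The Ighd5 calls with an Ighd1 or Ighd2 gene first had a median match of 5 bases. As members, 11 Ighd5 calls also listed an Ighd6 gene.

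Both families were assigned on short matches. The D match of Ighd5 joins had a median of 6 bases and a range of 5 to 10, and that of Ighd6 joins a median of 5 bases and a range of 5 to 13, against a median of 12 for Ighd1 to Ighd4. The shortest match in any call was 5 bases. Exactly 5 bases were matched in 29.2% of Ighd5 joins and 59.4% of Ighd6 joins, against 6.47% for Ighd1 to Ighd4. Matches of at least 8 bases made up 10.2% of Ighd5 joins and 3.33% of Ighd6 joins, against 80.5%. Ighd4, whose gene has 11 bases and so is close in length to the Ighd5 genes, had a median match of 8 bases and 52.6% of joins with at least 8. The library means of the match length were 6.01 to 6.28 bases for Ighd5 and 5.38 to 5.72 bases for Ighd6, and those of the other families in the same libraries were 11.7 or 11.8 bases. These ranges did not overlap. The mean difference was -5.60 ± 0.108 bases for Ighd5 and -6.16 ± 0.141 bases for Ighd6 (SD, n = 6, exact sign-flip permutation p = 0.0312 each, adjusted p = 0.0903). The Ighd5 genes called first have only 10 bases, fewer than the other families' library means. Gene length thus fixed the direction for Ighd5, and its p is a description only.

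**Figure D2:**
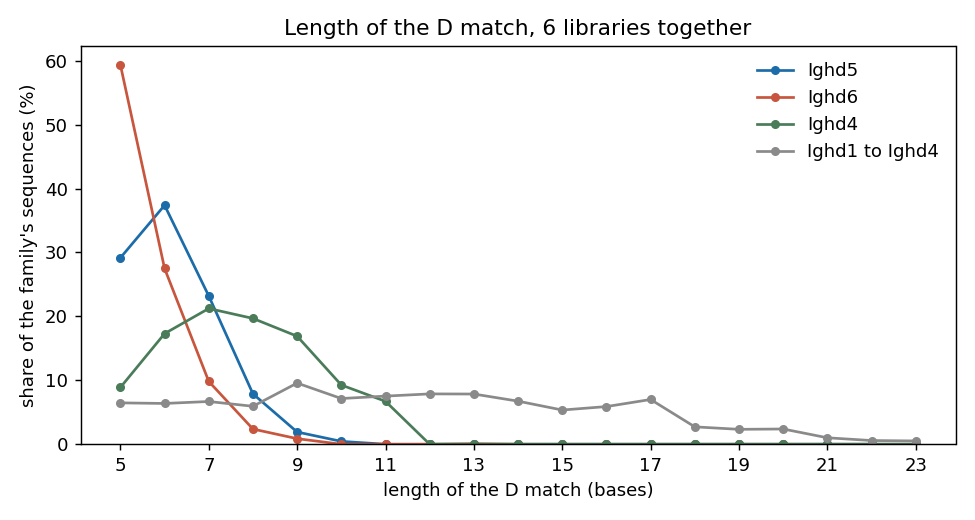
Share of each family's sequences (percent, vertical axis) by the length of the D match (bases, horizontal axis), with the 6 libraries added together; lines are Ighd5, Ighd6, Ighd4 and the pooled families Ighd1 to Ighd4. Ighd6 peaks at 5 bases (59.4%) and Ighd5 at 6, while Ighd1 to Ighd4 extend to 23 bases.

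Read the other way, the families took a larger part of the short matches. Among D calls with a match of 5 bases, Ighd5 made up 1.74% and Ighd6 5.04%. At 6 bases these shares were 2.32% and 2.42%, at 7 bases 1.41% and 0.847%, at 8 bases 0.547% and 0.234%, and at 9 bases 0.0829% and 0.0537%. At 10 or more bases they were 0.00288% and 0.00072%, from 4 Ighd5 joins and 1 Ighd6 join among 138914.

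The stretches matched most often show which letters drew the calls, and the matched bases are in capitals. Ighd5-1 had 50 joins with the first form below, and Ighd5-5 had 113, or 33.5% of its joins, with the second form. Ighd5-2 had 56, or 38.6%, with the third.
Ighd5-1: GAGTAcctac
Ighd5-5: gaCTACCTac
Ighd5-2: gaATACCtac
For Ighd6-1, 156 of 1000 joins matched the letters CCTCT and 82 matched GCCTC. For Ighd6-2, 47 of 262 joins matched TCTCT and 43 GTCTC.
Ighd6-1: aggcagctagCCTCTgcagtgccacaacc
Ighd6-1: aggcagctaGCCTCtgcagtgccacaacc
Ighd6-2, positions 3 to 17: gcagctagTCTCTgc
Ighd6-2, positions 3 to 17: gcagctaGTCTCtgc
Each of these stretches was found in all 6 libraries.

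Which positions were matched is given as a description, since the rules of matching fix part of it. A match of at least 5 bases in a 10-base gene must cover position 5 or 6, and Ighd6-2 stands first only where its letters set it apart from Ighd6-1, which precedes it by name. Likewise, a match within TACCTAC, which the Ighd5 genes share, has Ighd5-1 first by name. Coverage near the 3′ end therefore cannot be compared between the Ighd5 genes. Position 12 of Ighd6-1 was covered in 58.0% of its matches, position 5 in 17.4% and position 29, the last, in 6.92%. All 262 matches with Ighd6-2 as first gene covered position 11, and none of them covered a position after 17. All Ighd5-5 matches covered positions 3 to 7, and 30.3% reached position 1 and 4.15% position 10. For Ighd5-1, 130 of 406 covered position 1 and 16.5% position 10.

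**Figure D3:**
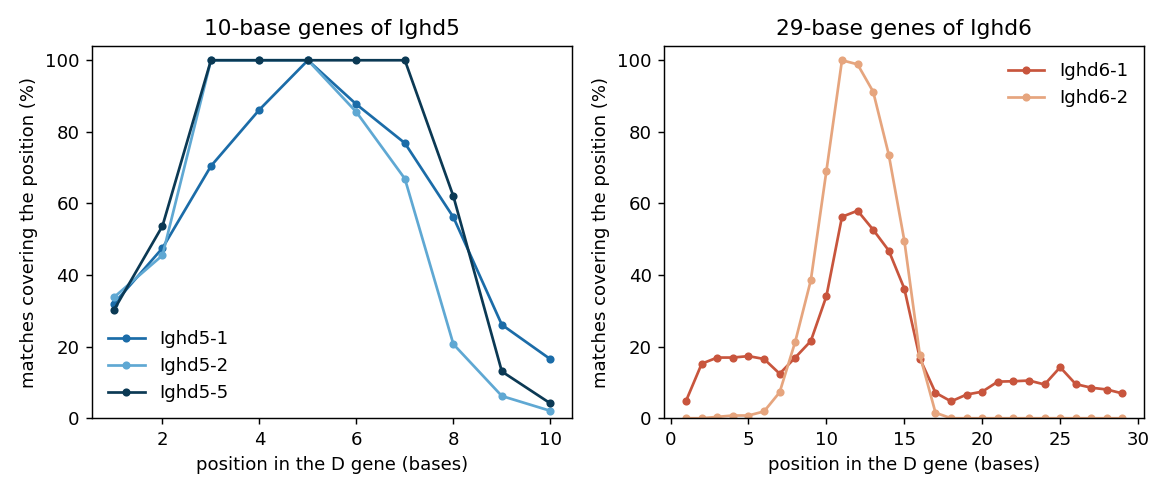
Share of a gene's matches (percent, vertical axis) that cover each position of the D gene (bases from its 5′ end, horizontal axis), for the 3 Ighd5 genes (left) and 2 Ighd6 genes (right) with a first call; the 6 libraries are added together. Ighd6-1 peaks at 58.0% at position 12, and Ighd6-2 is covered from position 3 to position 17 only.

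Full-length matches are shown since they carry the most of an Ighd5 gene. There were 4 of them among the 888 Ighd5 joins, and each used Ighj1. Their CDR3 bases, with the match in capitals, were as follows.
Ighd5-1 with Ighv3-3 at 2.5 µg, not productive: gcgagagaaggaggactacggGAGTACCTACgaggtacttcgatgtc
Ighd5-1 with Ighv1-26 in Q5_Q5, productive: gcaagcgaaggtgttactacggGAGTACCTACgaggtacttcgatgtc
Ighd5-1 with Ighv8-12 at 5 µg, not productive: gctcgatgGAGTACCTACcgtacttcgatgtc
Ighd5-5 with Ighv12-3 at 5 µg, productive: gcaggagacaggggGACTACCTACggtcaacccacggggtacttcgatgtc
The first 2 of these share every base from actacgg before the match to the end of the CDR3, although they differ in V gene and library. Whether these bases also fit an Ighd1 gene with mismatches was not tested. A full-length match therefore does not by itself show use of an Ighd5 gene.

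The longest Ighd6 match had 13 bases and was a call to the second listed allele of Ighd6-1 together with Ighd6-4. It lay in a productive join of Ighv2-3 and Ighj2 at 2.5 µg. After AGACAGC this match has C, where the other matches to that allele have T (AGACAGCTA), so it does not appear to be unbroken.
Ighd6-1: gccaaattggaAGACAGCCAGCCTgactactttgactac
No other Ighd6 match was longer than 9 bases.

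The same 5-base strings also stood in N regions of joins that had a long match to another D gene. Among 130557 joins with an Ighd1 or Ighd2 match of at least 10 bases, 1388 (1.06%) held at least 1 of the 12 strings of the Ighd5 genes within an N region, and 3188 (2.44%) held at least 1 of the 30 strings of the Ighd6 genes. Over the libraries these shares were 0.959% to 1.14% and 2.29% to 2.64%. Among the joins of that set with at least 1 N region of 5 bases or more (74988), the shares were 1.85% and 4.25%. CCTCT was the string found most often in both places for Ighd6, in the match of 294 Ighd6 joins and 951 times in N regions, and GCCTC followed with 184 joins and 415 occurrences. For Ighd5, TACCT lay in the match of 411 joins and occurred 169 times in N regions, while CCTAC lay in 84 joins and occurred 333 times. Across the strings, the count in Ighd6 joins and the count in N regions had a Spearman rho of 0.800 and a Pearson r of 0.888 (n = 30), and for Ighd5 0.364 and 0.261 (n = 12). These are descriptions across strings, which overlap each other and share libraries and base composition. Calls that list the family after a gene of another family are not in the joins counted. For Ighd5, 434 such calls had an Ighd2 gene first and 175 an Ighd1 gene, and for Ighd6, 295 had an Ighd3 gene first. The order of names thus lowers the counts of some strings, and the coefficients cannot be compared between the families. What part of the Ighd5 and Ighd6 calls rests on such strings was not tested.

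**Figure D4:**
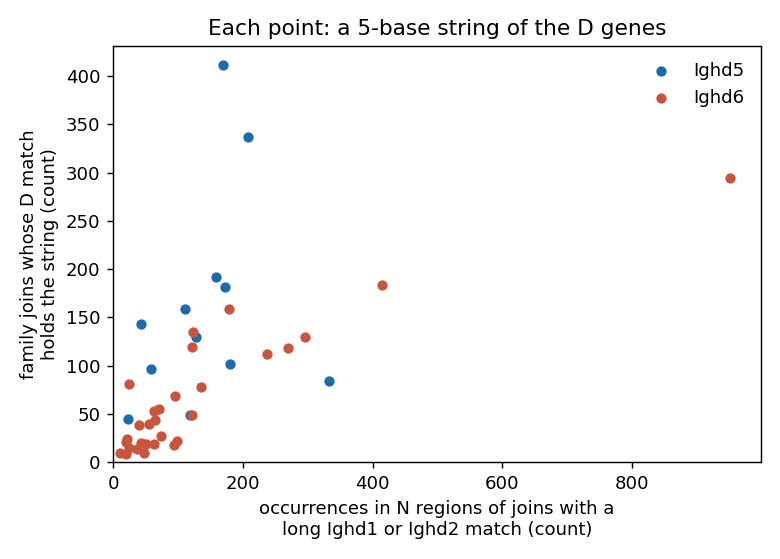
Each point is a 5-base string of the Ighd5 genes (12 strings) or the Ighd6 genes (30 strings); the horizontal axis counts its occurrences in N regions of joins with an Ighd1 or Ighd2 match of at least 10 bases, and the vertical axis counts the family's joins whose D match holds it. The Ighd6 point farthest right is CCTCT, with 951 occurrences and 294 joins.

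Junctions of both families were shorter than those of other D families. CDR3s of productive Ighd5 joins averaged 33.0, 33.8, 33.2 and 34.1 bases from 500 ng to 5 µg, 32.9 in Q5_Q5 and 35.2 in Q5_vent, with a mean of 33.7 ± 0.861 bases, against 38.4 ± 0.0620 for the other families (SD, n = 6). Those of Ighd6 averaged 32.6, 32.6, 32.6 and 33.3 bases from 500 ng to 5 µg, 32 in Q5_Q5 and 33.3 in Q5_vent, with a mean of 32.7 ± 0.495 bases, against 38.4 ± 0.0637. The family and other-family ranges did not overlap. The differences were -4.70 and -5.67 bases (exact sign-flip permutation p = 0.0312 each, adjusted p = 0.0903). When the other families were weighted to the match lengths of the family in each library, the differences were 0.280 ± 0.742 bases for Ighd5 (lower in 3 of 6 libraries) and -0.349 ± 0.439 bases for Ighd6 (lower in 4 of 6), and neither was called. Against Ighd3 and Ighd4 alone the Ighd5 difference was -0.876 bases and not called.

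N additions differed less than the CDR3. N regions here are all bases between the V, D and J matches, so templated bases outside a match count among them. Both N regions together averaged 7.25 ± 0.264 bases in Ighd5 joins, against 7.62 ± 0.0183 in the other families, lower in all 6 libraries (exact sign-flip permutation p = 0.0312, adjusted p = 0.0903), but the 5 µg interval of the difference, -0.459 to 0.291 bases, included 0. In Ighd6 joins the total was 7.15 ± 0.751 bases, against 7.62 ± 0.0193, and lower in 4 of 6 libraries. The V–D region of Ighd5 joins averaged 4.19 ± 0.308 bases, against 4.33 ± 0.0152. That of Ighd6 joins averaged 3.83 ± 0.440 bases, against 4.34 ± 0.0157, and was shorter in 5 of 6 libraries (exact permutation p = 0.0625). The D–J region averaged 3.06 ± 0.494 bases in Ighd5 and 3.32 ± 0.454 bases in Ighd6, against 3.29 ± 0.0114 and 3.28 ± 0.0114 in the other families. The Ighd6 D–J mean and total include 8 joins with D–J regions of at least 20 bases, the longest of 76 bases. Means without these 8 joins were not computed.

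Ighd6 joins more often lacked N bases altogether at a junction. No N base stood between V and D in 19.6% ± 2.98 of Ighd6 joins, against 9.17% ± 0.203 in the other families, and none between D and J in 24.5% ± 6.15, against 14.5% ± 0.124 (SD, n = 6, higher in all 6 libraries for both). For Ighd5 these shares were 12.2% ± 3.70, against 9.21% ± 0.204, at V–D and 21.3% ± 4.83, against 14.5% ± 0.134, at D–J, with Q5_vent lower than its other families at D–J (14.1% against 14.6%). At equal match length the Ighd6 difference at V–D averaged 4.70 points and was still called, and that at D–J averaged 7.0 points, with a 5 µg interval of -1.03 to 5.15 that included 0. These and the amino acid measures below are 22 comparisons chosen after values had been seen, and over all 48 comparisons the smallest adjusted p of the exact sign-flip permutation test was 0.0600.

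Ighj4, the J gene farthest from the D genes, was the J partner with a called difference in Ighd6 joins. It took 40.0%, 35.2%, 32.3% and 34.9% of Ighd6 joins from 500 ng to 5 µg, 33.8% in Q5_Q5 and 39.8% in Q5_vent. In the other families of the same libraries it took 25.4% to 26.9%. The groups did not overlap, and the difference averaged 9.78 ± 3.28 points (higher in 6 of 6 libraries, exact sign-flip permutation p = 0.0312, adjusted p = 0.0903). At equal match length it averaged 4.57 ± 2.53 points, again higher in 6 of 6 libraries, but the 5 µg interval was -0.522 to 6.95 points and the difference was not called.

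In Ighd5 joins Ighj4 took 25%, 36.5%, 31.2% and 35.3% from 500 ng to 5 µg, 31.4% in Q5_Q5 and 41.0% in Q5_vent, and averaged 33.4% ± 5.49, against 26.2% ± 0.637. It was higher in 5 of 6 libraries (exact permutation p = 0.0625), the exception being 500 ng, where 32 joins were measured. Ighj3 ran the opposite way, at 25%, 23%, 14.4% and 18.2% from 500 ng to 5 µg, 11.8% in Q5_Q5 and 6.41% in Q5_vent, with a mean of 16.5% ± 7.01, against 24.7% ± 0.944. It was lower in 5 of 6 libraries (exact permutation p = 0.0625), again all but 500 ng. Without the 500 ng library the Ighj3 and Ighj4 differences averaged -10.1 and 8.93 points and met the rule for a call. Leaving out the only library that disagreed fixed this. The 5 µg intervals, -11.4 to -4.19 and 4.58 to 13.5 points, already excluded 0. At equal match length the Ighd5 Ighj4 difference went from 7.16 to 3.34 ± 4.98 points, higher in 5 of 6 libraries. That of Ighj3 went from -8.20 to -5.19 ± 6.69 points, lower in 4 of 6, and neither was called. Ighj1 and Ighj2 took 19.1% ± 4.55 and 31.1% ± 5.09 of Ighd5 joins, against 18.6% ± 0.571 and 30.5% ± 1.44.

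For the other partners of Ighd6, Ighj2 took 26.4% ± 3.10, against 30.6% ± 1.46, lower in all 6 libraries (exact sign-flip permutation p = 0.0312, adjusted p = 0.0903) with a 5 µg interval of -4.30 to 2.59 points. Ighj3 took 21.2% ± 3.32, against 24.6% ± 0.950, and Ighj1 took 16.4% ± 2.32, against 18.6% ± 0.574. Over single genes, Ighj4 was the leading partner of Ighd5-1 at 37.2%, of Ighd5-2 at 33.1%, of Ighd5-5 at 31.5%, of Ighd6-1 at 35.9% and of Ighd6-2 at 30.5%.

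**Figure D5:**
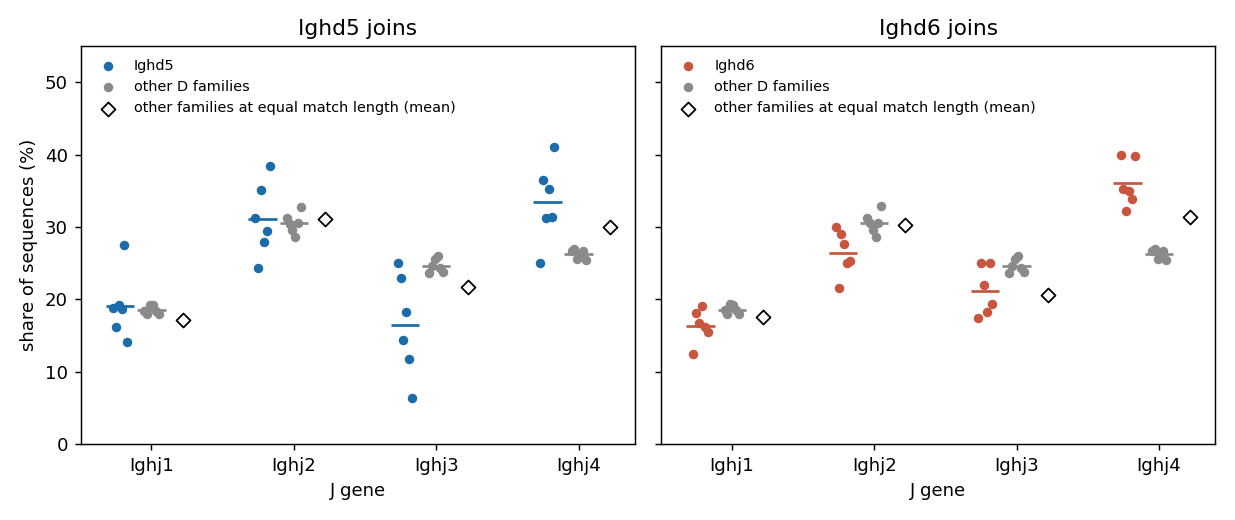
Share of sequences (percent, vertical axis) using each J gene in Ighd5 joins (left) and Ighd6 joins (right), 1 coloured point per library, beside the other D families of the same library (grey) and their mean at the family's match lengths (diamonds); short lines are means over 6 libraries. Ighj4 shares of Ighd6 lie between 32.3% and 40.0%, all above the grey points.

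V gene use could be described only coarsely. Ighv1-26, the V gene most used in the data set, was also the most used with both families, in 45 Ighd5 joins (5.07%, against 5.10% of other joins, ratio 0.994, 95% interval 0.747 to 1.32) and 54 Ighd6 joins (4.28%, against 5.10%, ratio 0.838, interval 0.645 to 1.09). Since 0 V genes reached the planned minimum of 100 family sequences, V genes with at least 20 were described, a choice made after the data were seen. A V gene was called when its ratio of shares, combined over the libraries by the Mantel-Haenszel method, was at least 1.5-fold either way, its interval excluded 1 and the 2.5 µg and 5 µg libraries agreed in direction.

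For Ighd5, 2 of 8 V genes tested were called (25.0%). Ighv5-2, also known as 81X and among the V genes nearest to the D genes (113578504 to 113578990), was in 25 Ighd5 joins or 2.82%, against 1.73% of other joins, a ratio of 1.63 (interval 1.11 to 2.41) with a higher share in all 6 libraries. Of these 25 joins, 2 were reads of a single clone in 2 libraries. Ighv6-3 (114391712 to 114392010) was in 21 joins, a ratio of 1.55 (interval 1.02 to 2.37) with a higher share in 5 of 6 libraries. Of these 21 joins, 3 were reads of a single clone in 3 libraries and 2 were reads of another clone. For Ighd6, 3 of 24 were called (12.5%), while 4 of the 24 intervals excluded 1. The fourth gene, Ighv7-3, named after its values were seen, had the highest ratio of the 24 (2.28, interval 1.53 to 3.40, 24 joins) but a higher share in 3 of 6 libraries, and was not called. Ighv13-2 (114357761 to 114358060) was in 21 Ighd6 joins or 1.66%, against 0.828%, a ratio of 2.01 (interval 1.31 to 3.08) with a higher share in 5 of 6 libraries. Of these 21 joins, 4 were reads of a single clone over 3 libraries. Ighv5-4 (113597448 to 113597741) was in 29 joins at a ratio of 1.52 (interval 1.06 to 2.19), close to the limit of 1.5, with a higher share in 4 of 6 libraries. These 29 joins include 2 clones that were each read 2 times, in 2 libraries. Ighv1-64 (115507587 to 115507977) was in 21 joins, a ratio of 0.569 (interval 0.372 to 0.871), but its share was higher in 2 of 6 libraries. Ighv5-2 itself had a ratio of 1.01 (interval 0.666 to 1.53) with Ighd6. These intervals are not widened for the number of genes. They count every read of a clone, and ratios with 1 count per clone were not computed at this minimum.

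The next most used V genes had intervals that included 1. Ighv3-6 was in 30 Ighd5 joins (ratio 1.10) and 38 Ighd6 joins (ratio 0.975), Ighv8-8 in 27 (ratio 1.22) and 28 (ratio 0.884), and Ighv1-55 in 27 (ratio 1.39) and 29 (ratio 1.05). Ighv1-18, Ighv1-64, Ighv1-69 and Ighv9-3 were among the 10 leading partners of Ighd5, and Ighv1-50, Ighv1-9, Ighv1-19, Ighv1-72 and Ighv1-82 among those of Ighd6, with ratios of 0.797 to 0.916 and 0.902 to 1.248. Ighv11-2 and Ighv12-3, genes used by B-1 cells that bind phosphatidylcholine, were in 3 and 9 joins of each family.

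Distal V families (Ighv1 and Ighv8) made up 59.9% ± 6.72 of Ighd5 joins, against 62.3% ± 0.259, and 63.9% ± 9.08 of Ighd6 joins, against 62.3% ± 0.254. The D-proximal families (Ighv2 and Ighv5) made up 13.2% ± 3.52, against 14.1% ± 0.144, and 14.2% ± 4.67, against 14.1% ± 0.151 (SD, n = 6). These differences were smaller than the spread between libraries. By family, Ighv2 was in 3.94% of Ighd5 joins, against 5.54% (ratio 0.711, interval 0.514 to 0.984), and Ighv5 was in 10.8%, against 8.59% (ratio 1.26, interval 1.04 to 1.52). The ratios of Ighv1, Ighv3 and Ighv8 with Ighd5, and of all 5 of these families with Ighd6, had intervals that included 1.

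Productive joins, which keep the reading frame and hold no stop codon, made up 62.5%, 77.0%, 75% and 76.0% of Ighd5 joins from 500 ng to 5 µg, 60.8% in Q5_Q5 and 70.5% in Q5_vent. The mean was 70.3% ± 7.08, against 72.7% ± 0.520 in the other families, higher in 3 of 6 libraries and lower in 3. The mean difference of -2.40 points ranged from -3.80 without the 1 µg library to -0.332 without Q5_Q5. In Ighd6 the share was 70.0%, 79.5%, 73.2% and 74.9% from 500 ng to 5 µg, 82.4% in Q5_Q5 and 76.7% in Q5_vent. Its mean was 76.1% ± 4.43, against 72.7% ± 0.506, and higher in 5 of 6 libraries (exact sign-flip permutation p = 0.125). At equal match length Ighd5 was lower in 6 of 6 libraries, by -7.82 ± 7.40 points, with a 5 µg interval of -6.70 to 1.31, and Ighd6 was lower in 4 of 6, by -2.41 ± 5.37 points. Neither was called. Against Ighd3 and Ighd4 alone both families were lower, by -11.9 and -6.10 points, and against Ighd2 alone Ighd6 was higher by 7.19 points, and these 3 differences were called.

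The reading frame of the matched D letters is given as a description. The first base of Ighd5-5 lay at codon position 1 in 52.0% of its 254 in-frame joins, at position 2 in 31.1% and at position 3 in 16.9%. For Ighd5-1 these shares were 38.6%, 17.1% and 44.3% of 316 joins. Ighd6-1 and Ighd6-2 hold a stop codon when their first base lies at codon position 3, and 26.1% of 788 Ighd6-1 joins and 35.7% of 199 Ighd6-2 joins were read that way. Of these, 93.7% and 91.5% were productive. The stop codon, tag, begins at position 8, which 17.0% of all Ighd6-1 matches and 21.4% of all Ighd6-2 matches covered. Most matches thus did not hold the stop codon, and a join in this frame need not carry it.

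Productive CDR3s of both families held less glycine and more leucine and proline than those of the other families. The matched D letters are part of the CDR3, so the rule that chose the members fixes part of these residues. Glycine made up 6.21% ± 1.70 of CDR3 residues in Ighd5 joins, against 9.76% ± 0.0423, and 6.53% ± 0.601 in Ighd6 joins, against 9.76% ± 0.0386 (SD, n = 6, lower in all 6 libraries). Leucine was higher, at 5.05% ± 0.525, against 2.62% ± 0.0247, and 4.94% ± 0.524, against 2.62% ± 0.0241, and so was proline, at 4.57% ± 0.590, against 2.00% ± 0.0189, and 3.46% ± 0.395, against 2.00% ± 0.0171. At equal match length the differences in glycine, leucine and proline kept their direction in all 6 libraries and were called in both families. Against Ighd2 alone the Ighd5 glycine difference was -3.24 points, lower in 5 of 6 libraries, and was not called.

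Threonine and serine differed from the other D families in opposite directions in Ighd5 and Ighd6, and the 2 families were not tested against each other. Threonine made up 4.67% ± 1.01 of residues in Ighd5, against 3.29% ± 0.0483, but 2.11% ± 0.507 in Ighd6, against 3.31% ± 0.0522. Serine made up 3.82% ± 1.02 in Ighd5, against 6.77% ± 0.0728, but 7.74% ± 0.315 in Ighd6, against 6.75% ± 0.0700. The Ighd5 threonine difference was not called, the 5 µg interval of -0.00477 to 1.29 points reaching 0. Tyrosine, which Ighd1 and Ighd2 encode in their usual frame, made up 19.6% ± 2.43 in Ighd5, against 21.0% ± 0.0708, and 16.1% ± 0.642 in Ighd6, against 21.1% ± 0.0769, lower in 5 and 6 of 6 libraries. At equal match length the tyrosine difference was 2.28 ± 2.39 points in Ighd5, turning its direction, and -1.09 ± 0.710 points in Ighd6, and neither was called. Against Ighd3 and Ighd4 alone tyrosine was higher, by 5.22 and 1.78 points, and called in both families. The Ighd5 serine difference was -0.456 ± 1.05 points at equal match length, -1.02 points against Ighd3 and Ighd4 and -0.157 points against Ighd2, and was called in none of these. The Ighd6 threonine difference was -0.502 ± 0.466 points at equal match length and 0.307 points against Ighd2, and was called in neither.

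Few joins recurred. A clone, here a set of joins that share V gene, J gene and every base of the CDR3, was found in several libraries for 4 of 877 Ighd5 clones (0.456%) and 11 of 1238 Ighd6 clones (0.889%), against 0.767% and 0.765% of the clones of the other families. The 2 that recurred most were Ighd6-1 joins with Ighj3, each read 4 times over 3 libraries, and both matched TAGCC.
Ighv13-2, productive: agtagaggggaTAGCCccgggtttccttac
Ighv5-2, not productive: gcaagacaTAGCCccggtttgcttac
An Ighd5-1 join of Ighv6-3 and Ighj2 was read 3 times, in 3 libraries.
Ighv6-3, productive: acaggccccctGTACCctgactac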

How the data were processed

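Per the labels' protocols, B cells of the spleen were enriched by magnetic depletion before extraction of their DNA. Per the submitters' processing notes, the build was mm10 (GRCm38), and Bowtie2 2.3.2 and Trim Galore 0.4.4 were used. For the V, D and J caller, neither version, parameters nor row filter is given in the sources used here. The authors deposited 1 row per deduplicated sequence; per the file headers the D match, N regions and other lengths are in bases, and V identity is a fraction (reported under alternatives as a percentage).

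Members and lists were chosen with earlier results of these data known. Each measure was the family minus all other D families within a library, tested with a two-sided exact sign-flip permutation test over 6 libraries (64 sign flips, smallest p 0.0312) and Benjamini-Hochberg adjustment. The p-values measure only the spread between these libraries, and no p-value was computed between groups, which have 1 library each. Shares carry Wilson 95% intervals and other values normal ones, for counting error only. Named V genes are the 10 with the highest mean share in each family, those called, Ighv5-2, Ighv11-2 and Ighv12-3. Named D stretches come from the 3 most frequent per gene, and the joins shown in full and the recurring clones were chosen after their values were seen. Alternatives changed the members, the rest, the counting unit, the minimum match and the productive status. Germline letters were read from the matched bases, and D, J and V positions from the RefSeq annotation of GRCm38.p6, which does not list Ighd6-3 or Ighd6-4. The tests were checked on simulated data. Values were computed in SciPy 1.17.1, NumPy 2.4.6 and pandas 2.3.3 under Python 3.11.15, and plots drawn with matplotlib 3.10.9.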

Additional observations from a re-analysis of the deposited data

Results flagged for a closer look

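Of 50 values checked over the 6 libraries, 4 had a highest or lowest library farther from the others than Dixon's 95% critical value allows for 6 values. Chance flags about 1 in 20 such values. In Ighd5, the glycine share of productive CDR3s was 9.56% at 500 ng, with the next library at 6.19%. The Ighd5 threonine share was 6.67% at 500 ng, with the next library at 4.68%. Both rest on 20 productive joins. In Ighd6, calls listing several D genes made up 82.4% in Q5_Q5, with the next library at 77.7%. The D-proximal V families made up 5.00% of Ighd6 joins at 500 ng, from 40 joins, with the next library at 13.6%.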

How the results depend on the processing

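Values are differences of the family from the other D families, in percentage points or bases, and the cause of each change was not tested beyond what an alternative's own construction shows. No paired analysis was possible because each group has 1 library, so that samples of different groups cannot be paired by replicate; the family and the rest were compared within each library throughout. The match length difference kept its direction and call in both families under every alternative that could be fitted. For Ighd5, gene length fixes the direction wherever the other families' mean match exceeds 10 bases. With any call listing a gene of the family, Ighd5 had 18.9 for calls listing several D genes, 3.22 for Ighj1, -1.48 for Ighj2 and 5.55 for Ighj4 (all called but Ighj2), and Ighd6 had 0.219 for total N and -1.52 for the D-proximal V families. Against Ighd3 and Ighd4 only, Ighd5 had 16.8 for several D genes, -11.9 for the productive share, -0.876 for CDR3 length, 0.0579 for total N, 0.422 for N at V–D, 7.36 for Ighj1, -4.67 for Ighj2, -2.41 for no N at V–D and 5.22 for tyrosine, of which several D genes, the productive share, Ighj1 and tyrosine were called, and Ighd6 had -6.10 for the productive share, 0.0667 and -0.113 for N at V–D and D–J, 4.68, -9.31 and -5.33 for Ighj1, Ighj2 and Ighj3, -5.96 for the in-frame share and 1.78 for tyrosine, all called but N and Ighj1. Against Ighd2 only, Ighd5 had 1.37 for the productive share, -0.636 for total N, 4.51 for Ighj1, -13.4 for Ighj3 (these 3 called) and 0.0789 for the in-frame share, while glycine (-3.24) and serine (-0.157) were no longer called, and Ighd6 had -0.819 for several D genes, 7.19 for the productive share (called), -0.240 for N at D–J, 1.83 for Ighj1, -8.67 for Ighj3 (called), -1.75 for the D-proximal V families and 0.307 for threonine. At equal match length, Ighd5 had 0.280 for CDR3 length, 0.0561 for N at V–D, -0.0911 for Ighj2, -0.925 for no N at V–D and 2.28 for tyrosine, and Ighd6 had -2.41 for the productive share, -0.349 for CDR3 length, -0.262 for N at D–J, 0.520 for Ighj3, 4.57 for Ighj4 and -2.81 for the in-frame share. With a match of at least 8 bases, Ighd5 had 1.10 for total N, 1.23 for N at V–D, -1.75 for Ighj1, 4.83 and 1.10 for the distal and D-proximal V families, -0.361 for no N at D–J, 1.68 for the in-frame share and 0.0665 for V identity, while measures without joins in all 6 libraries were not run. Over productive sequences, Ighd5 had -1.62 for Ighj2 and -8.88 for Ighj3 (called), and Ighd6 had -0.548 for N at V–D (called), -0.741 for the D-proximal V families and -0.0202 for V identity. Over non-productive sequences, with fewer joins, Ighd5 had -11.3 for several D genes, -1.41 for Ighj1, 0.667 for the D-proximal V families, -2.05 for no N at V–D and 0.0219 for V identity, and Ighd6 had -0.149 for N at D–J, 12.6 for Ighj4 and -1.95 for the distal V families. Without unclear primer tags, Ighd5 had -0.347 for Ighj1 and Ighd6 -0.0811 for the in-frame share. With 1 count per clone, and with calls holding genes of the family only, no result changed its direction and only the Ighd5 threonine difference changed its call, to called in both. V genes called numbered 0 at the planned minimum of 100 and 2 (Ighd5) and 3 (Ighd6) at 20, and a minimum of 200 left none to test.

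Leaving out each library in turn, Ighd5 ranged from -1.18 to 1.40 for Ighj1 (reversed without Q5_Q5), -0.493 to 1.86 for Ighj2 (reversed without 2.5 µg or Q5_vent), -10.1 to -6.37 for Ighj3 and 5.46 to 8.93 for Ighj4 (both called without 500 ng), -1.37 to 0.139 for the D-proximal V families (reversed without 1 µg), 5.62 to 8.32 for no N at D–J (called without Q5_vent) and 0.989 to 1.52 for threonine (called without 5 µg). Ighd6 ranged from -0.624 to -0.386 for N at V–D (called without Q5_vent), -0.0611 to 0.189 for N at D–J (reversed without 1 µg, 5 µg or Q5_vent), -1.61 to 3.22 for the distal V families (reversed without 500 ng), -0.507 to 1.92 for the D-proximal V families (reversed without 1 µg, 2.5 µg, Q5_Q5 or Q5_vent), 0.908 to 1.05 for serine (no longer called without 5 µg) and -0.239 to 2.38 for the in-frame share (reversed without 1 µg or Q5_Q5). A call gained by leaving out the only library that disagreed follows from the rule for a call. Depth limits every value at 500 ng, with 32 Ighd5 and 40 Ighd6 joins.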

Other observations

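A pair of Ighd6-2 joins, described after they were seen, carried the same 54 bases from the match onward although one joined Ighv10-1 at 2.5 µg and the other Ighv1-76 at 5 µg. Both used Ighj4 and were not productive. The call to Ighd6-2 rests on the first 7 of these bases, and the other 47 are counted as the D–J region. Whether these bases are unjoined DNA beside Ighd4-1 was not tested, so the call does not show use of Ighd6-2. The capitals mark CACAGTG, the consensus heptamer of recombination signal sequences, and the 8 bases after it are the first 8 of Ighd4-1.
Ighd6-2: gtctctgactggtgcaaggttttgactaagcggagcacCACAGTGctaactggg
A heptamer followed by these letters was found in 0 of 888 Ighd5 joins and 0 of 213871 joins of Ighd1 to Ighd4. D–J regions of at least 20 bases were found in 8 Ighd6 joins (0.634%), this pair among them, and 0 Ighd5 joins. They were found in 74 joins (0.0346%) of Ighd1 to Ighd4. These regions are all bases between the D and J matches, and in this pair they are not all untemplated.

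Strings of 7 bases from Ighd1 or Ighd2 genes stood in an N region of 6 Ighd5 joins (0.676%) and 5 Ighd6 joins (0.396%), against 0.243% of Ighd1 to Ighd4 joins and 0.0837% of those with a match of 5 to 7 bases. With 5-base strings the shares were 5.63% and 5.94%, against 5.95% and 5.80%.

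An Ighd6-1 call on 9 bases lay in a non-productive join of Ighv1-19 and Ighj2 at 5 µg, in which the deposited CDR3 begins upstream of the usual place. The match comes before the letters gcaaga, with which the CDR3 of many joins begins. Its bases therefore lie on the V side of the usual CDR3 start and do not show a D segment within the CDR3.
Ighd6-1: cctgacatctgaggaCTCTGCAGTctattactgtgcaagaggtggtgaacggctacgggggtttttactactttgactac
By V family, a value chosen after it was seen, Ighv7 was in 38 Ighd6 joins, or 3.01% against 1.47% of other joins, a ratio of 2.04 (interval 1.49 to 2.8) among 30 family ratios computed. Its share was higher in 3 of 6 libraries, at a library mean of 2.61% ± 2.68, and it was not called. Ighv13 with Ighd6 (ratio 2.01, interval 1.31 to 3.08, higher in 5 of 6 libraries) was the one family ratio called. Of its 21 joins, 4 were reads of a single clone over 3 libraries.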
